A study of Homo sapiens with 45 samples.

Results

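Day 4 was compared with day 2 in a differentiation of human motor neurons, at the onset of neurogenesis. The libraries were taken by their labelled day, 3 of day 4 and 3 of day 2, which makes 6 of the 45 human libraries of the series. Day 3 was not sampled. The starting cells were H9, a widely used line of human embryonic stem cells. Before day 0, the cells of both days were cultured on fibronectin in N2B27 medium with the WNT pathway activator CHIR99021, basic FGF (bFGF), the activin and BMP receptor inhibitors SB431542 and DMH1, and the ROCK inhibitor Y-27632, a treatment used to make neuromesodermal progenitors. On day 0 they were dissociated and plated again with retinoic acid (RA, 100 nM) and SAG (500 nM), a Smoothened agonist that turns on Hedgehog signalling. A ROCK inhibitor (10 µM) was present for the first 48 hours after plating. Day 2 therefore falls at the end of its use, and its removal and the 2 further days in culture cannot be told apart in this comparison. Neither day has an untreated counterpart here, and all libraries come from 1 cell line. The labels call the cells of both days neural progenitors derived from embryonic stem cells and number the replicates as bioreps without saying what was separate between them. The p-values therefore measure only the spread between replicate libraries of this series. That spread was estimated over all 45 libraries, not over the 6 of these days alone.

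In the developing spinal cord, proneural factors of the basic helix-loop-helix (bHLH) family drive progenitors to leave the cell cycle and become neurons. They switch on Notch ligands, and Notch signalling in neighbouring cells induces HES repressors that hold those cells as progenitors. Newborn neurons then pass through a short phase marked by factors such as NHLH1 and the EBF family before they turn on cytoskeletal, axonal and synaptic genes. Sonic hedgehog from the floor plate, acting against dorsal signals, divides the progenitors into ventral domains, among them the OLIG2 domain that gives rise to motor neurons.

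Messenger RNA was counted per gene, and levels are given as CPM, counts relative to the scaled library total. The day 4 libraries held 33164987, 22835823 and 32773860 counts, and the day 2 libraries 31594840, 29151089 and 27413941. The share of counts in mitochondrial genes ranged between 3.67% and 4.15% on day 4 and between 3.15% and 3.55% on day 2. The day 4 libraries differed more from each other than the day 2 libraries did, with a chi-square per gene between pairs of replicates of 8.66 to 21.7 on day 4 and 2.06 to 2.94 on day 2. Replicate 2 of day 4, the shallowest of the 6, had a summed level of 933 CPM for the 7SL and 7SK RNAs, against 126 and 138 CPM in the other day 4 libraries and 63.4 to 79.7 CPM on day 2. It also held 656 CPM of clustered histone genes, against 179 and 330 CPM in the other day 4 libraries and 211 to 265 CPM on day 2. These groups of RNA, which mostly lack a poly(A) tail, were looked at after the values were seen, and results that rest on this library are given without it. Whether counting used strand is not stated in the sources, so the level of a gene that overlaps another, such as LHX4 with ACBD6 or SNCG with MMRN2, is uncertain. Among the other genes described below this holds for PAX6, DLL1, MYT1, TUBB3, L1CAM, PAX3, CDON, HHIP, GLI1, ETV4, ETV5, GDF11, TGFB1, NID2, MDM2, DDIT3, CELF3, TAGLN and THBS1.

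Markers of neurons and of neural progenitors were present on both days. The summed level of 5 neuron markers (TUBB3, DCX, ELAVL3, ELAVL4 and STMN2) was 1461 to 1552 CPM on day 4 and 616 to 624 CPM on day 2. The 5 progenitor markers SOX1, SOX2, SOX3, PAX6 and NES summed to 4004 to 4304 CPM on day 4 and 3820 to 3911 CPM on day 2. Defining markers of the other cell types that the culture could hold were at low levels. The 4 markers of paraxial mesoderm summed to 2.29 to 2.71 CPM on day 4 and 3.11 to 3.21 CPM on day 2, the 5 of endoderm and endothelium to 1.67 to 2.11 and 0.869 to 1.10 CPM, the 3 of neural crest to 0.226 to 0.256 and 0.0663 to 0.228 CPM, and the 4 of surface ectoderm to at most 0.0635 CPM in any of the 6 libraries. SOX17 of endoderm and KRT5, KRT14 and GRHL2 of surface ectoderm had no count on either day. These are bulk samples, in which fewer cells of a type and less RNA per cell cannot be told apart.

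Of the genes tested, 35.5% differed between the days. Of 19436 genes tested with edgeR's quasi-likelihood test and Benjamini-Hochberg adjustment, 3794 (19.5%) were higher on day 4 and 3098 (15.9%) were lower, at an adjusted p under 0.05. The median log2 change over all genes tested was 0.0035, that of the genes called higher 0.53, and that of the genes called lower -0.35. A fitted change of over 2-fold was found for 1130 (5.81%) of the higher and 514 (2.64%) of the lower genes, over 4-fold for 477 and 211, and over 16-fold for 127 and 44. Without any one of the 6 libraries the counts were 3335 to 3510 higher and 2565 to 2779 lower. Every list count below is to be read beside the 19.5% higher and 15.9% lower of all genes.

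The longer marker lists of other cell types, which hold genes of wider expression, summed to more than their defining markers. Of 9 tested genes of endoderm, endothelium and blood 4 were higher and 1 lower, and the list summed to 37.1 to 39.1 CPM on day 4 and 20.3 to 21.8 CPM on day 2. Most of the sum was CXCR4, a chemokine receptor, at 30.7 ± 0.980 CPM on day 4 and 18.1 ± 0.393 on day 2 (SD, n = 3 each, as for all means below). The endothelial genes TIE1, CDH5 and KDR were the other higher members, at 303 and 132, 134 and 26 and 100 and 27 counts on day 4 and day 2, and PECAM1, of endothelium as well, was lower, at 16 and 44 counts. The PECAM1 call was lost with DESeq2 (adjusted p = 0.0921), with no filter on low counts (adjusted p = 0.0975) and in most fits without 1 library. Surface ectoderm and placode genes summed to 11.03 to 11.4 CPM on day 4 and 10.8 to 11.1 CPM on day 2, with 1 of 6 tested higher (EYA1) and 1 lower (EPCAM). Paraxial mesoderm and somite genes summed to 4.60 to 4.87 CPM on day 4 and 3.88 to 4.06 CPM on day 2, also with 1 of 6 tested higher (UNCX) and 1 lower (MEOX1). The part of such cells in the results below was not tested.

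**Figure D1:**
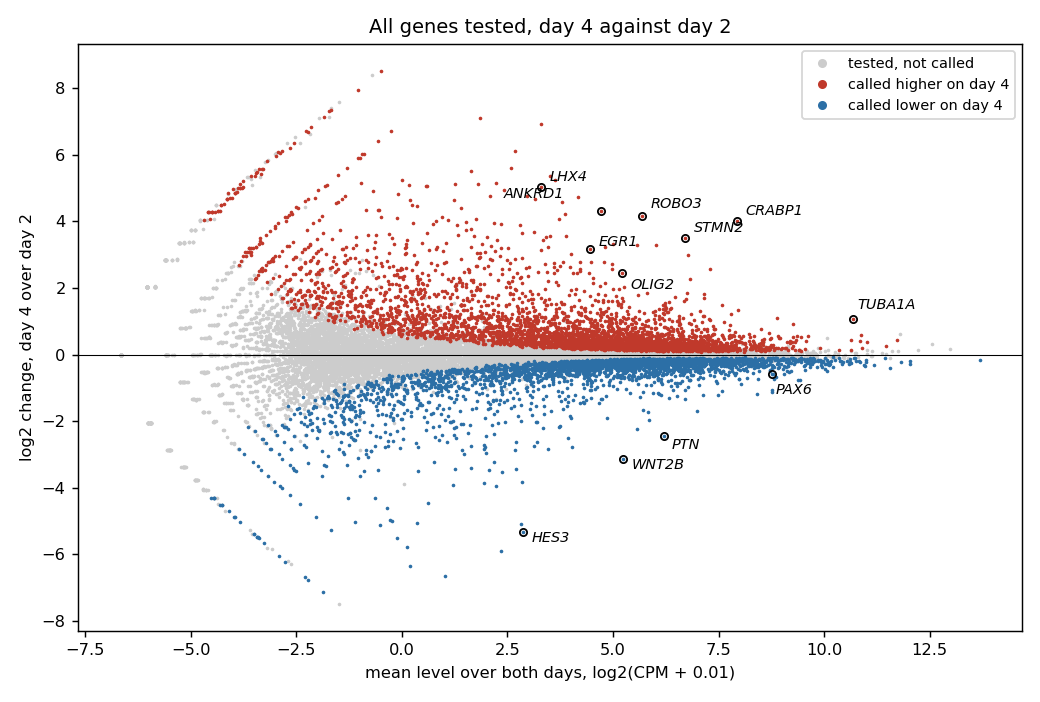
Each point is 1 of the 19436 genes tested, with the mean level of day 4 and day 2 on a log2 scale on the x axis and the log2 change of day 4 over day 2 on the y axis. Genes called higher on day 4 are red, genes called lower blue and the rest grey, and rings mark 12 genes of the text, from LHX4 at 5.02 to HES3 at -5.32.

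Among the proneural genes NEUROD4 was called and the others were not. Of the 6 proneural genes tested, 1 was called higher and none lower, beside 19.5% and 15.9% of all genes. The 5 further members of the list of 11, among them ATOH1 and PTF1A, had too few counts to be tested. NEUROG2, the proneural factor of motor neuron and ventral interneuron progenitors, stood at 149, 149 and 163 CPM in the day 4 libraries, against 148, 146 and 150.1 CPM in the day 2 libraries. The libraries of the days overlapped, and the log2 change of 0.05 ± 0.11 (SE) was not called (95% interval -0.16 to 0.27, adjusted p = 0.746). NEUROG1 and NEUROD1 were not called either, with log2 changes of 0.25 ± 0.14 and 0.20 ± 0.13. NEUROD4, which acts downstream of the neurogenins, had 87.9, 91.7 and 93.95 CPM in the day 4 libraries, against 35.8, 38.1 and 36.7 CPM in the day 2 libraries. All its day 4 libraries lay above all its day 2 libraries, and it rose by 1.31 ± 0.16 on the log2 scale (adjusted p = 4.25e-08). Over the whole course NEUROG2 had already reached 103 CPM on day 1 and stayed near its day 2 level until day 6 (149 CPM), whereas NEUROD4 went on to a mean of 184 CPM on day 7. NEUROG2 expression therefore began before the interval compared here.

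Notch pathway genes were called in both directions. Among 15 ligands, receptors, modifiers and regulators, 5 (33.3%) were higher and 5 (33.3%) lower, beside 19.5% and 15.9% of all genes. The ligands DLL1 and JAG1 were among the lower ones. DLL1, the main ligand of newborn neurons, was at 155, 149.5 and 180.3 CPM in the day 4 libraries, against 226, 227 and 226 CPM in the day 2 libraries. No library overlapped, and the log2 change was -0.49 ± 0.16 (adjusted p = 0.017), although the call was lost without day 4 replicate 1 (adjusted p = 0.0604) or replicate 2 (adjusted p = 0.0721). JAG1, a ligand of ventral interneuron domains, was at 261, 230.4 and 228 CPM in the day 4 libraries, against 327, 338 and 346 CPM in the day 2 libraries, and all day 4 libraries lay below those of day 2 (log2 change -0.49 ± 0.05, adjusted p = 1.76e-09). MFNG, a glycosyltransferase that modifies Notch receptors, also fell (-0.60, adjusted p = 0.00495). The receptor NOTCH1 rose, with 256 ± 5.30 CPM on day 4 and 172 ± 7.79 on day 2, a log2 change of 0.57 ± 0.06 (adjusted p = 1.97e-09), as did DNER, a ligand of neurons (1.00, adjusted p = 0.000305), and NUMBL, a Notch inhibitor (0.44, adjusted p = 0.000167). NOTCH2 and NOTCH3 were not called, with log2 changes of -0.19 ± 0.08 and 0.11 ± 0.10. The calls of DLL4, NUMB and MIB1 did not survive the loss of single libraries either, and the count of lower members was 2 without day 4 replicate 1 and 3 without day 4 replicate 2 or day 2 replicate 2.

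Most repressors downstream were higher, while HES5, HES3 and ID3 were lower. Of 13 HES, HEY and ID genes and NRARP, 9 (69.2%) were higher and 3 (23.1%) lower, beside 19.5% and 15.9% of all genes. The share lower was not far from that of all genes. HES5, the chief Notch effector of neural progenitors, had 160.5, 153 and 186 CPM in the day 4 libraries, against 265, 263 and 241 CPM in the day 2 libraries. It was lower in every day 4 library (log2 change -0.62 ± 0.13, adjusted p = 0.000221). HES1, a related repressor, had 17.3, 15.6 and 14.8 CPM in the day 4 libraries, against 6.40, 5.54 and 4.82 CPM in the day 2 libraries. Here every day 4 library was higher, by 1.50 ± 0.17 on the log2 scale (adjusted p = 7.88e-09). HES3, a repressor of the earliest neural progenitors, had 0.318, 0.497 and 0.288 CPM in the day 4 libraries, against 15.5, 13.6 and 13.7 CPM in the day 2 libraries, the lowest log2 change of any protein-coding gene that averaged at least 10 CPM on 1 of the days (-5.32 ± 0.22, adjusted p = 1.51e-20). Its mean was 83.7 CPM on day 0, and it was lower on each later day sampled, up to day 8 (0.0293 CPM). ID1, an inhibitor of bHLH factors, rose by 1.49 ± 0.10 (adjusted p = 7.62e-15), while its relative ID3 fell by 0.66 on the log2 scale (SE 0.14, adjusted p = 0.000365). HEY2, HEYL and HES4 were higher, by 1.04, 0.82 and 0.46.

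**Figure D2:**
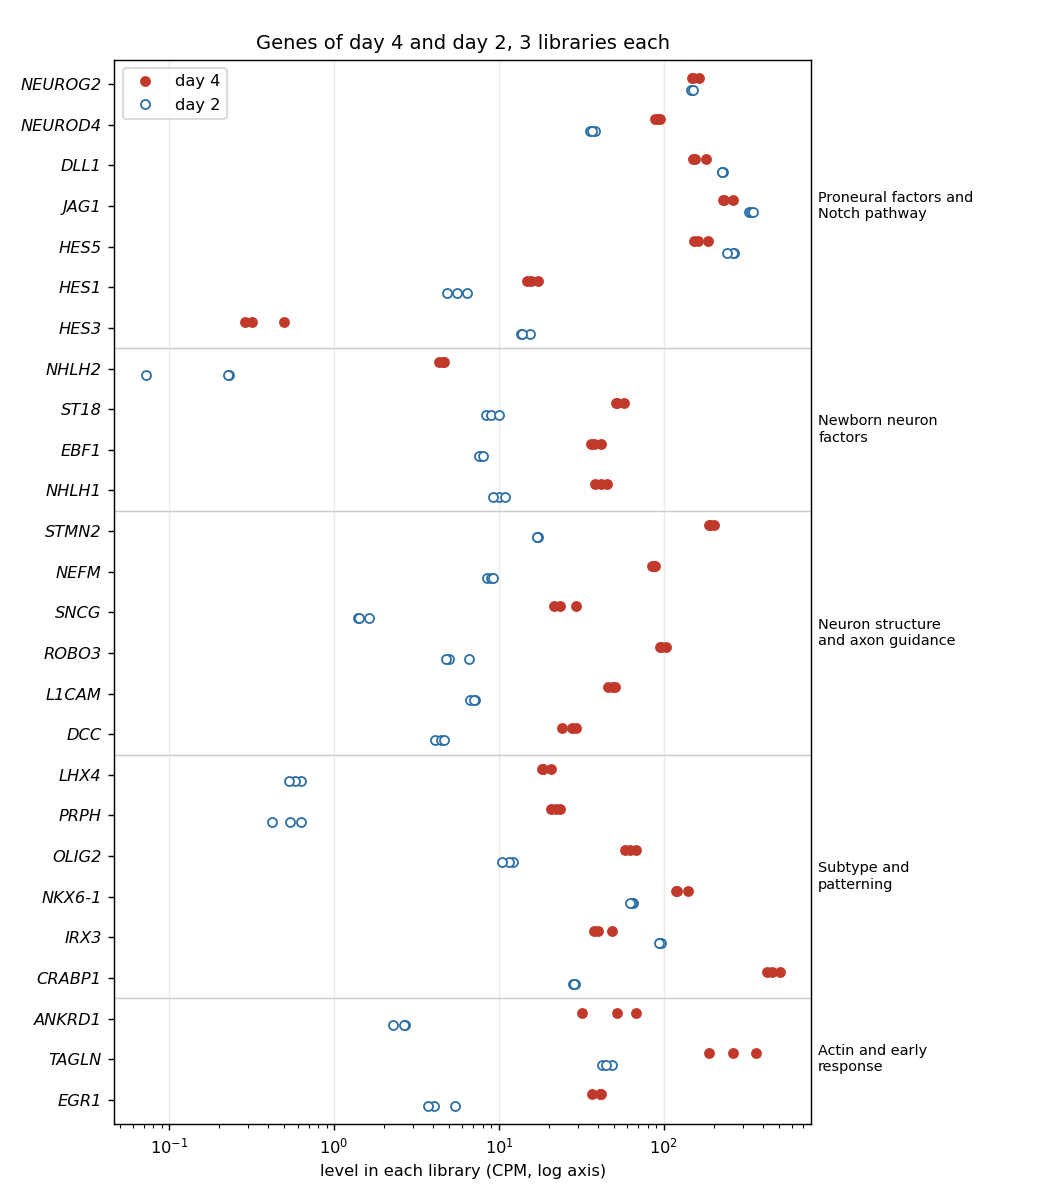
Levels of 26 genes in each library, in CPM on a log axis, with day 4 as filled red points above day 2 as open blue points for each gene. Only NEUROG2 has overlapping libraries among the genes drawn. HES3, DLL1, JAG1, HES5 and IRX3 lie lower on day 4 and the rest higher, and the day 4 libraries spread most in ANKRD1 and TAGLN.

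Most factors of the newborn neuron rose. Of 22 genes of the transition from progenitor to neuron, 18 were higher and 1 lower, with a median log2 change of 1.10, against 0.0035 over all genes tested. NHLH2 and NHLH1 are bHLH factors that newborn neurons express briefly. NHLH2, which changed most of the list, was at 4.57, 4.66 and 4.33 CPM on day 4, against 0.232, 0.0724 and 0.228 CPM on day 2. NHLH1 was at 41.7, 37.9 and 45.4 CPM on day 4, against 10.04, 10.9 and 9.22 CPM on day 2. None of these libraries overlapped, and the log2 changes were 4.63 ± 0.29 (adjusted p = 3.66e-16) and 2.05 ± 0.18 (adjusted p = 6.38e-11). EBF1, a helix-loop-helix factor that promotes neuron migration and differentiation, had 37.7, 41.4 and 36.2 CPM in the day 4 libraries, against 7.79, 7.57 and 7.97 CPM in the day 2 libraries. ST18, a zinc finger factor of the MYT1 family, had 52.1, 57.5 and 51.3 CPM in the day 4 libraries, against 8.32, 8.98 and 9.94 CPM in the day 2 libraries. Both were several-fold higher in every day 4 library, with log2 changes of 2.30 ± 0.18 (adjusted p = 2.25e-12) and 2.56 ± 0.19 (adjusted p = 1.8e-12). MYT1, which represses Notch target genes, rose by 1.70 ± 0.22 (adjusted p = 1.17e-07), and SRRM4, a splicing factor of neuronal microexons, by 1.37 ± 0.16 (adjusted p = 3.65e-08). Smaller rises were found for SOX11 (0.41) and BTG2 (0.29), a gene of progenitors in their last division. INSM1, SOX4 and HES6, which act alongside the proneural factors, were not called, with log2 changes of 0.02 ± 0.12, 0.02 ± 0.08 and 0.17 ± 0.12, and GADD45G, an early proneural target, was the 1 member that was lower (-0.60 ± 0.14, adjusted p = 0.000694).

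Proneural factors bind E-boxes of the form CANNTG. The promoters of EBF1 and NHLH1 are shown, which rose most among the called members with a single promoter window, a chromosome being left out. Both hold such a site. The windows are the 250 bases before the start of the gene in RefSeq on GRCh38.p14, at chr5:159097957-159098206, minus strand for EBF1 and chr1:160366821-160367070, plus strand for NHLH1, with capitals marking the E-boxes CAGCTG or CAGATG on either strand. The site begins 235 bases before the start of EBF1 and 210 bases before that of NHLH1.

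EBF1: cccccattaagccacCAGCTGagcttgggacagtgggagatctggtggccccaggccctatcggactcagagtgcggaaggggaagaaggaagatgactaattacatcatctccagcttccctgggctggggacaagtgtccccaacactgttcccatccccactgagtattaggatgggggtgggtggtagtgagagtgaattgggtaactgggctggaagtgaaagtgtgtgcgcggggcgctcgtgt

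NHLH1: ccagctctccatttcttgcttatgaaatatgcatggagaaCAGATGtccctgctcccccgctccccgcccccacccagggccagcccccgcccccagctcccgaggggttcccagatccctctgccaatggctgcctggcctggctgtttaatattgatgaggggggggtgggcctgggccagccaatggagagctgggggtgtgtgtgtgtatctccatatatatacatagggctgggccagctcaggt

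Such an E-box was found in 12 of 27 windows (44.4%) of the transition factors called higher, in 10 of 32 windows (31.2%) of the neuron structure genes called higher, and in 24.3% of all 35116 windows. Some genes have several windows. The lists were drawn up as genes of neurogenesis with earlier results of these data known, and windows of members not called were not counted. These shares therefore do not bear on the rise on day 4, and a match of letters does not show that a factor binds there.

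Genes of neuronal structure rose in all but a pair of cases. Of 22 such genes 20 were higher and none lower, with a median log2 change of 1.08, and the count was 20 in each fit without 1 library. STMN2, a microtubule regulator of growing axons, had 189, 188 and 200.4 CPM in the day 4 libraries, against 17.2, 17.1 and 17.04 CPM in the day 2 libraries. Its day 4 libraries lay far above those of day 2 (log2 change 3.49 ± 0.20, adjusted p = 2.9e-15). The neurofilament gene NEFM had 87.5, 84.3 and 87.7 CPM in the day 4 libraries, against 8.42, 8.98 and 9.14 CPM in the day 2 libraries, and the synuclein gene SNCG had 23.4, 21.6 and 29.4 CPM in the day 4 libraries, against 1.39, 1.41 and 1.63 CPM in the day 2 libraries. Neither overlapped between the days, with log2 changes of 3.29 ± 0.23 (adjusted p = 3.25e-13) and 4.08 ± 0.21 (adjusted p = 3.47e-17). GAP43, a protein of growth cones, rose by 2.63 ± 0.17 (adjusted p = 1.37e-14), and STMN4, a neural stathmin, by 5.61 ± 0.39 (adjusted p = 2.11e-13). The RNA-binding proteins ELAVL4 and ELAVL3 rose by 2.04 and 1.84. Smaller rises were those of TUBB3 (0.91), MAP2 (0.77) and STMN1 (0.52). RBFOX3 (0.40 ± 0.22) and DPYSL3 (-0.18 ± 0.10) were not called. STMN2 had been at 249.9 CPM on day 0 and 6.33 CPM on day 1, so its day 4 level was not the first high level of the course, and it climbed on to 720.4 CPM by day 8.

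Synaptic genes and neuronal RNA-binding proteins were also higher. Of 20 genes of synapses and vesicle release 15 rose and none fell (median log2 change 0.96). The largest change was that of SYT4, a vesicle protein, at 18.3, 20.5 and 19.8 CPM on day 4, against 1.33, 1.96 and 1.75 CPM on day 2, with no overlap (log2 change 3.55 ± 0.28, adjusted p = 4.01e-12). RAB3A (1.96), CPLX1 (1.54) and SYT1 (1.14) followed, whereas RIMS1 (-0.43 ± 0.25), RIMS2 (-0.03 ± 0.08) and RAB3C (0.10 ± 0.15) were not called. Among 25 genes of neuronal RNA processing and chromatin remodelling 13 rose and 2 fell. The splicing factor CELF3 had 35.2, 38.6 and 35.98 CPM on day 4, against 7.16, 6.01 and 6.91 CPM on day 2, again without overlap (log2 change 2.45 ± 0.20, adjusted p = 6.16e-12). ACTL6B, the subunit of neuronal BAF complexes, rose by 2.24 ± 0.31 (adjusted p = 2.13e-07). PTBP1, which represses neuronal splicing, fell by 0.25 on the log2 scale (adjusted p = 0.00178), and REST, the repressor of neuronal genes, was not called (-0.09 ± 0.07).

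Receptors and cues of axon guidance were more often higher than lower. Of 30 such genes 17 (56.7%) were higher and 6 (20%) lower, with a median log2 change of 0.76. The share lower was near the 15.9% of all genes, while 19.5% of all genes were higher. Without 1 library 4 to 6 members were lower. ROBO3, the receptor that lets commissural axons cross the midline, had 102, 95.8 and 94.5 CPM in the day 4 libraries, against 4.97, 4.74 and 6.60 CPM in the day 2 libraries. Every day 4 library was far higher (log2 change 4.17 ± 0.13, adjusted p = 1.94e-24). Day 4 was also its peak among the days sampled up to day 8, since its mean was 57.3 CPM on day 5 and 14.1 CPM on day 8. DCC, the netrin receptor of the same axons, had 24.2, 27.9 and 29.2 CPM in the day 4 libraries, against 4.11, 4.42 and 4.67 CPM in the day 2 libraries, a log2 change of 2.62 ± 0.16 (adjusted p = 2.9e-15). The adhesion molecules L1CAM and CNTN2 of axon bundles rose by 2.79 ± 0.19 (adjusted p = 1.18e-13) and 2.57 ± 0.25 (adjusted p = 6.21e-10), and the ligands SLIT1 and NTN1 by 1.74 and 1.39. EFNB2, an ephrin, had 98.1, 92.9 and 80.1 CPM on day 4, against 168, 174 and 171 CPM on day 2. It was lower in all 3 day 4 libraries (log2 change -0.92 ± 0.11, adjusted p = 3.45e-08), and PLXNA2, NRP1 and NRCAM fell as well (-0.68, -0.57 and -0.55).

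**Figure D3:**
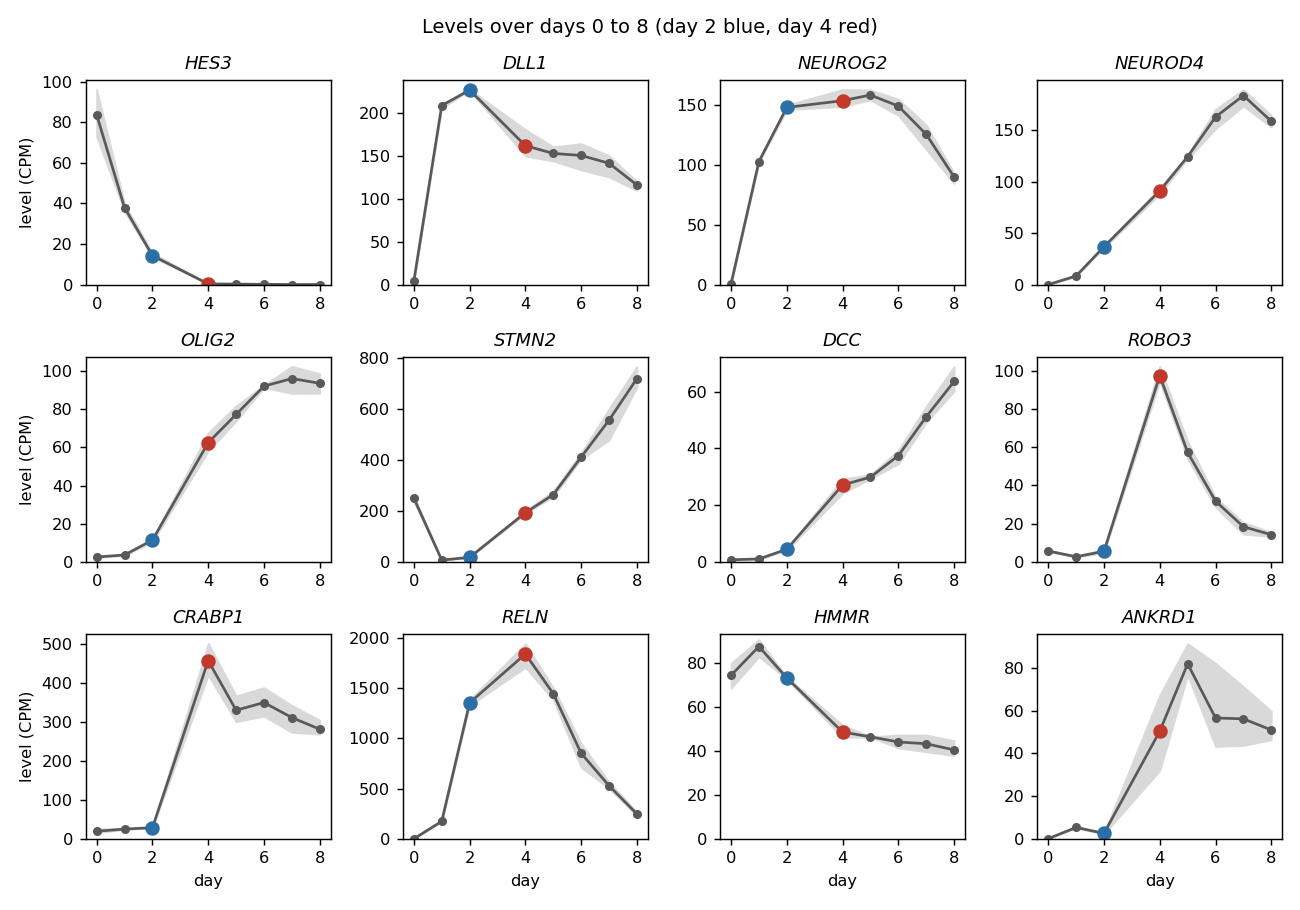
Mean level in CPM on days 0 to 8 for 12 genes, with the range of the 3 libraries in grey, day 2 in blue and day 4 in red. Day 3 was not sampled. HES3 lies lower on each later day, NEUROG2 is level between day 2 and day 4, STMN2 climbs on to 720.4 CPM by day 8, and ROBO3, CRABP1 and RELN are highest on day 4 among these days.

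Progenitor genes gave no common direction. Of 12, 4 rose and 4 fell, and none changed over 2-fold. PAX6, a factor of most spinal progenitors, had 352, 328 and 361 CPM in the day 4 libraries, against 519.7, 515 and 518 CPM in the day 2 libraries. SOX1 averaged 89.3 ± 6.25 CPM on day 4 and 123 ± 2.14 on day 2. Both were lower in every day 4 library, with log2 changes of -0.58 ± 0.06 (adjusted p = 8.09e-11) and -0.47 ± 0.08 (adjusted p = 5.07e-06), and SOX2 fell less (-0.29 ± 0.07, adjusted p = 0.00129). The intermediate filament genes VIM and NES rose, by 0.59 ± 0.08 (adjusted p = 2.15e-07) and 0.25 ± 0.06 (adjusted p = 0.000959). SOX3, SOX9 and FABP7 were not called, with log2 changes between 0.09 and 0.11.

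Among ventral patterning genes OLIG1 and OLIG2 rose and IRX3 fell. Of 12 genes of ventral domains 6 (50%) were higher and 1 (8.33%) lower, beside 19.5% and 15.9% of all genes. OLIG2, the factor that specifies motor neuron progenitors, had 58.1, 61.9 and 67.6 CPM in the day 4 libraries, against 12.1, 11.4 and 10.4 CPM in the day 2 libraries. OLIG1, its neighbour on the chromosome, had 53.02, 57.3 and 65.5 CPM in the day 4 libraries, against 6.99, 5.07 and 5.31 CPM in the day 2 libraries. Both were several-fold higher in all day 4 libraries, with log2 changes of 2.46 ± 0.13 (adjusted p = 5.32e-17) and 3.33 ± 0.18 (adjusted p = 5.03e-16). NKX6-1, a factor of the ventral domains, had 120.4, 118 and 139 CPM in the day 4 libraries, against 64.5, 64.1 and 62.1 CPM in the day 2 libraries, a log2 change of 0.99 ± 0.13 (adjusted p = 1.64e-07). IRX3, which marks domains dorsal to OLIG2 and is repressed by it, had 39.97, 37.9 and 48.4 CPM in the day 4 libraries, against 94.95, 95.4 and 93.7 CPM in the day 2 libraries, and was lower in every day 4 library (log2 change -1.17 ± 0.09, adjusted p = 2.83e-13). PRDM12, a factor of the p1 domain, rose by 1.72 ± 0.31 (adjusted p = 2.5e-05) at a low level. NKX2-2, a factor of the most ventral p3 domain, rose as well, at a low level of 0.564 ± 0.195 CPM on day 4 and 0.0689 ± 0.0551 on day 2. NKX6-2, DBX2, IRX5 and FOXN4 were not called, with log2 changes between -0.25 and -0.09, and DBX1 was not either (0.97 ± 0.44). Of 10 genes of the floor plate and p3 domain 3 (30%) rose and 2 (20%) fell, not far from the 19.5% and 15.9% of all genes. SHH stood at 1.47 ± 0.255 CPM on day 4 and 0.759 ± 0.394 on day 2 and FOXA2 at 0.241 ± 0.0541 CPM on day 4 and 0.314 ± 0.156 on day 2, and neither was called, while SPON1, which codes for a floor plate adhesion protein, fell by 1.05 on the log2 scale (SE 0.16, adjusted p = 2.13e-06).

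Motor neuron genes rose, most of them from low levels. All 16 members of the list passed the filter on low counts, which counts every day of the course, so some did so through their later levels. Of these 11 were higher and none lower. A member with few counts on day 2 could hardly be called lower, so the count does not weigh one direction against the other. PRPH, the peripherin gene of motor and sensory neurons, had 22.1, 20.7 and 23.3 CPM in the day 4 libraries, against 0.630, 0.543 and 0.417 CPM in the day 2 libraries. It had been at 20.8 CPM on day 0 and 0.590 CPM on day 1, so its day 4 level was not the first high level of the course. LHX4, a LIM factor of newborn motor neurons and V2a interneurons, had 18.1, 20.6 and 18.5 CPM in the day 4 libraries, against 0.630, 0.579 and 0.531 CPM in the day 2 libraries. The days were far apart in both genes, with log2 changes of 5.36 ± 0.20 (adjusted p = 1.25e-22) and 5.02 ± 0.33 (adjusted p = 6.85e-14). LHX3 had 2.86, 3.03 and 4.04 CPM on day 4, against 0.265, 0.253 and 0.0759 CPM on day 2 and MNX1 1.24, 1.27 and 0.897 CPM on day 4, against 0.365, 0.145 and 0.304 CPM on day 2. These were also higher in all day 4 libraries (log2 changes 4.02 ± 0.41 and 2.02 ± 0.60, adjusted p = 1.33e-09 and 0.00817), although MNX1, which is decisive for motor neuron identity, remained near 1 CPM. ISL1, the partner of LHX3 in motor neurons, had 41 and 2 counts in the 3 day 4 and the 3 day 2 libraries, a ratio of 20.3 (95% counting interval 5.28 to 174). The choline transporter gene SLC5A7 had 20 counts on day 4 and none on day 2, which makes it at least 6.61-fold higher against a floor of 3 counts over the day 2 libraries. The calls of ISL1 and SLC5A7 were lost with limma on log2(TPM + 1), with adjusted p = 0.079 and 0.544. ISL2, SLC18A3, RET, CHODL and FOXP1 were not called. The call of ALDH1A2 was lost in every fit without 1 library and that of SLIT2 in 4 of them. In the fit of the 6 libraries alone 6 members were higher, and with limma on log2(TPM + 1) 7. Of the members missing in the former, SLIT2 was tested there and not called (adjusted p = 0.113), and the rest had too few counts to be tested. Of 5 tested genes of visceral and branchial motor neurons 4 (80%) rose, beside 19.5% of all genes. Among them was PHOX2A with 55 and 2 counts on day 4 and day 2, a ratio of 27.3 (95% counting interval 7.20 to 231). Here too a member with few counts on day 2 could hardly be called lower, so this count does not weigh one direction against the other.

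Factors of several interneuron classes were higher on day 4, mostly at low levels. Of a list of 26, 16 passed the filter and 10 had too few counts. Of the 16, 8 were higher and 1 lower, but a member with no or few counts on day 2 passed through day 4 or later days and could hardly be called lower, so the count does not weigh one direction against the other. EN1, a factor of V1 interneurons, had 118 counts on day 4 and none on day 2, at least 39.02-fold higher against the same floor, and SOX14, a factor of ventral interneurons, had 45 counts and none, at least 14.9-fold higher. POU4F1, a factor of sensory neurons and dorsal interneurons, had 3.75, 4.07 and 4.10 CPM on day 4, against 0.0994, 0.326 and 0.304 CPM on day 2, and rose by 4.03 ± 0.29 (adjusted p = 3.14e-14). TAL1, a factor of V2b interneurons, rose by 3.03 ± 0.38 (adjusted p = 2.31e-08) and PAX2, a factor of inhibitory interneurons, by 2.65 ± 0.41 (adjusted p = 2.11e-06). VSX1, a factor of V2 progenitors and newborn V2 cells, was already at 18.2 ± 2.50 CPM on day 4 and 16.7 ± 0.308 on day 2 and was not called (0.13 ± 0.15), nor was GATA2 (-0.18 ± 0.26). LBX1, a factor of dorsal interneurons, was the member that fell (-0.83 ± 0.23, adjusted p = 0.00332).

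Dorsal genes were more often lower than higher. Of 18 tested genes of dorsal progenitors, roof plate and neural crest 8 were lower and 3 higher, beside 15.9% and 19.5% of all genes. PAX3, a factor of dorsal progenitors, had 0.413, 0.724 and 0.449 CPM on day 4, against 2.85, 3.11 and 2.77 CPM on day 2. MSX1, a BMP target of the dorsal neural tube, had 2.92, 2.17 and 2.66 CPM on day 4, against 6.43, 8.26 and 7.28 CPM on day 2. Both lay lower in all day 4 libraries, with log2 changes of -2.49 ± 0.30 (adjusted p = 3.41e-07) and -1.48 ± 0.26 (adjusted p = 1.78e-05). ZIC5 and ZIC2 fell too (-1.38 and -0.75). MSX1 had been at 61.8 CPM on day 0. The members that rose were SOX8 (0.79 ± 0.10), BMP7 (0.47 ± 0.07) and DMRT3, the last with 15 and 3 counts on day 4 and day 2, a ratio of 4.96 (95% counting interval 1.40 to 26.7) whose call was lost with DESeq2 (adjusted p = 0.0659) and without any one of 4 libraries.

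HOX genes, which set position along the body axis, were mostly higher. Of 11 genes of groups 5 to 8, 10 were higher and none lower (median log2 change 1.09), and of 12 genes of groups 1 to 4, 7 were higher and 2 lower (median 0.32). HOXC6 had 11.3, 10.8 and 13.3 CPM in the day 4 libraries, against 2.82, 2.10 and 2.997 CPM in the day 2 libraries. HOXA5 had 20.5, 18.2 and 18.9 CPM on day 4, against 7.46, 7.21 and 7.17 CPM on day 2. HOXD8 had 9.46, 9.36 and 9.81 CPM on day 4, against 2.22, 2.68 and 2.09 CPM on day 2. Each was higher in every day 4 library, by 2.17 ± 0.16 (adjusted p = 8.05e-14), 1.40 ± 0.08 (adjusted p = 9.84e-17) and 2.03 ± 0.10 (adjusted p = 1.01e-18). HOXD1 was an anterior gene that fell (-0.89 ± 0.12, adjusted p = 8.67e-08), and the count of lower genes of groups 1 to 4 was 1 without day 2 replicate 2. Of the 16 genes of groups 9 to 13, 4 were tested. HOXB9 had 497, 481 and 532 CPM on day 4, against 325, 328 and 319 CPM on day 2, and rose by 0.64 ± 0.05 (adjusted p = 1.99e-12), while HOXA9, HOXC9 and HOXD9, with 12 or fewer counts on either day, were not called. HOXB9 and HOXC6 had been at 846 and 13.8 CPM on day 0 and 134 and 1.03 CPM on day 1. Their day 4 levels were thus not the first high levels of the course. Genes within a HOX cluster overlap one another, so reads may be shared between neighbours. Of forebrain and midbrain genes, FEZF2 had 3 and 335 counts on day 4 and day 2, 113-fold lower on day 4 (95% counting interval 38.2 to 549).

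**Figure D4:**
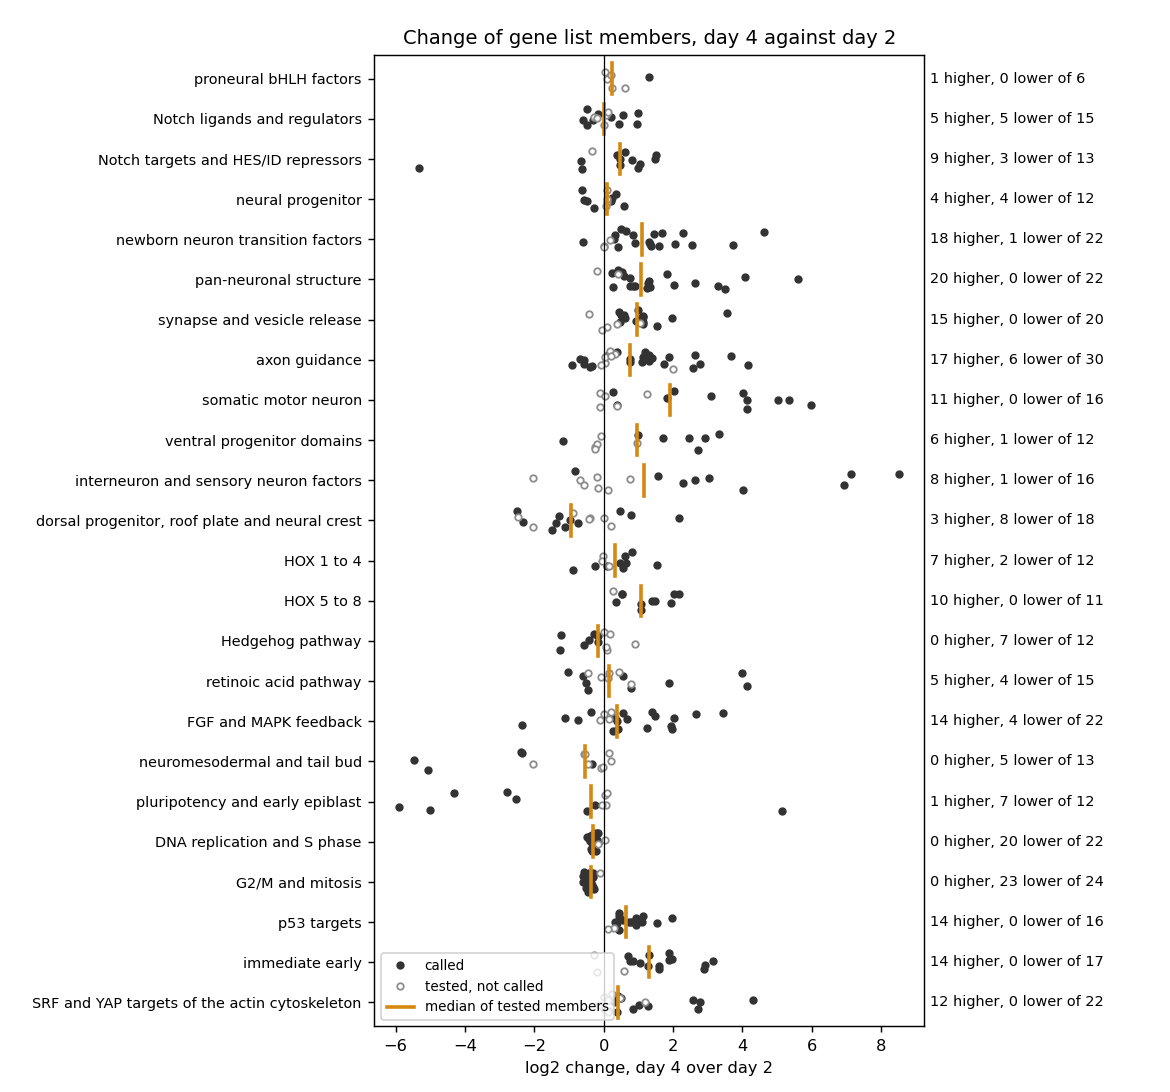
Log2 change of day 4 over day 2 for every tested member of 24 gene lists, with called members filled, other members open and the median of the tested members as an orange bar. The numbers on the right count the members called. Neuronal lists lie mostly above 0, the 2 cell cycle lists in a narrow band below 0, and the Notch, retinoic acid and neural progenitor lists on both sides.

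Among genes of RA handling CRABP1 rose and CRABP2 fell. Of 15 tested, 5 (33.3%) were higher and 4 (26.7%) lower, beside 19.5% and 15.9% of all genes. With 3 higher members, as with no filter on low counts, with limma or with the 6 libraries alone, the share is near that of all genes. CRABP1, which binds RA in the cytoplasm, had 451, 421 and 502 CPM in the day 4 libraries, against 27.97, 28.9 and 28.6 CPM in the day 2 libraries. The days were far apart (log2 change 4.01 ± 0.13, adjusted p = 4.66e-22), and day 4 was its highest level up to day 8. CRABP2, the binding protein that carries RA to its receptors, had 483, 439 and 542 CPM in the day 4 libraries, against 678, 714 and 688 CPM in the day 2 libraries, and fell by 0.51 on the log2 scale (SE 0.10, adjusted p = 0.000124). The receptor RARA rose (0.79 ± 0.06, adjusted p = 1.14e-13) while RARB, a target of RA, and RARG fell (-0.46 ± 0.08 and -1.02 ± 0.13, adjusted p = 3.43e-05 and 4.44e-08). CYP26A1, which degrades RA, was at 9.65 ± 1.38 CPM on day 4 and 13.2 ± 0.159 on day 2 and was not called (-0.44 ± 0.23). Without any one library 3 members were higher (4 without day 4 replicate 3), since ALDH1A2 and TGM2, both at low levels, lost their calls.

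No Hedgehog pathway gene was called higher. Of 12 tested, 7 were lower, a count that was 4 without replicate 1 or 2 of either day. HHIP, an inhibitor and target of the pathway, had 16.6, 17.95 and 16.9 CPM in the day 4 libraries, against 39.6, 39.9 and 41.3 CPM in the day 2 libraries. CDON, a Hedgehog co-receptor, had 31.02, 30.2 and 26.8 CPM in the day 4 libraries, against 72.3, 70.9 and 68.7 CPM in the day 2 libraries. Both were lower in all day 4 libraries, with log2 changes of -1.23 ± 0.09 (adjusted p = 9.37e-14) and -1.27 ± 0.10 (adjusted p = 2.67e-13). GLI1, a target gene that reports pathway activity, fell by 0.56 on the log2 scale (SE 0.10, adjusted p = 1.49e-05), whereas PTCH1, the receptor and another target, was at 553 ± 34.3 CPM on day 4 and 545 ± 8.85 on day 2 and was not called (95% interval -0.15 to 0.20). No member was higher at an unadjusted p under 0.05 or with limma on log2(TPM + 1), while DESeq2 and edgeR on the 6 libraries alone each called SHH higher (adjusted p = 0.0277 and 0.0486). The other counts of none in these lists were also none at an unadjusted p under 0.05, with DESeq2 and with limma. With the 6 libraries alone they were none as well, except that DPYSL3 of the neuronal structure genes and MYC of the immediate early genes were called lower (adjusted p = 0.00244 and 0.0136), both with a log2 change of -0.18.

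Genes of FGF signalling and its feedback were mostly higher. Of 22 tested, 14 (63.6%) rose and 4 (18.2%) fell, beside 19.5% and 15.9% of all genes, so the share that fell was near that of all genes. ETV5, a transcription factor induced by FGF, had 23.5, 23.5 and 22.2 CPM in the day 4 libraries, against 3.25, 3.40 and 4.25 CPM in the day 2 libraries. IL17RD, a feedback inhibitor of FGF receptors, had 49.9, 56.4 and 47.3 CPM in the day 4 libraries, against 13.7, 11.9 and 13.2 CPM in the day 2 libraries. Each was higher in every day 4 library, by 2.67 ± 0.11 (adjusted p = 3.44e-21) and 1.98 ± 0.07 (adjusted p = 4.66e-24). FGF18, a ligand, rose by 3.43 ± 0.26 (adjusted p = 3.57e-13), and ETV4, ETV1, SPRY4 and SPRY2 by 2.02, 1.95, 1.39 and 1.25. ETV5, IL17RD and ETV4 had been at 146, 719 and 107 CPM on day 0 and 2.26, 7.40 and 1.81 CPM on day 1. Their day 4 levels were thus not the first high levels of the course. The receptors FGFR4 and FGFR1 fell (-1.12 ± 0.10 and -0.73 ± 0.06, adjusted p = 3.22e-11 and 1.74e-13), while FGFR3 rose (0.41 ± 0.10, adjusted p = 0.00225).

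Of 26 WNT pathway genes tested, 7 (26.9%) were higher and 7 lower, not far from the 19.5% and 15.9% of all genes. The ligands WNT7A and WNT5A rose. WNT7A had 18.03, 18.4 and 18.3 CPM on day 4, against 2.78, 3.22 and 2.31 CPM on day 2, and WNT5A had 122, 119 and 118 CPM on day 4, against 40.04, 39.8 and 40.5 CPM on day 2. No libraries overlapped (log2 changes 2.71 ± 0.17 and 1.58 ± 0.07, adjusted p = 1.3e-15 and 6.17e-20). LEF1 and AXIN2, targets of canonical WNT signalling, fell (-0.73 ± 0.14 and -0.44 ± 0.10, adjusted p = 9.4e-05 and 0.000356). Outside the list, WNT2B, another ligand, had 9.14, 7.91 and 5.96 CPM on day 4, against 69.96, 68.6 and 64.3 CPM on day 2, a log2 change of -3.14 ± 0.32 (adjusted p = 2.5e-09), after a mean of 229.6 CPM on day 1. Of 20 genes of BMP and TGF-beta signalling 8 (40%) rose and 1 (5%) fell, beside the same shares of all genes. Among the higher ones were TGFB2 (1.33 ± 0.07), GDF11 (1.06 ± 0.09), which regulates the timing of neuron types in the cord, and TGFB1 (2.03 ± 0.30).

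Several genes of earlier stages fell. Of 13 tested tail bud genes 5 (38.5%) were lower and none higher, beside 15.9% and 19.5% of all genes. CDX1 had 0.0953, 0.0904 and 0.0320 CPM on day 4, against 2.35, 3.01 and 2.05 CPM on day 2, lower in all day 4 libraries (-5.05 ± 0.49, adjusted p = 3e-09), and TBXT, the brachyury gene, had no count on day 4 and 14 on day 2, at least 4.70-fold lower on day 4 (its call was lost with limma on log2(TPM + 1), adjusted p = 0.303). CDX2, which acts in the caudal neural tube, was at 9.85 ± 0.732 CPM on day 4 and 12.5 ± 0.826 on day 2, and its call was lost without day 4 replicate 1 (adjusted p = 0.0618) or day 2 replicate 1 (adjusted p = 0.0631) and with limma on log2(TPM + 1) (adjusted p = 0.25). Of 12 tested pluripotency genes 7 (58.3%) fell and 1 (8.33%) rose. VRTN had 0.222, 0.0904 and 0.160 CPM on day 4, against 11.2, 9.67 and 9.11 CPM on day 2 and POU5F1 0.0635, 0.0452 and 0.0320 CPM on day 4, against 1.66, 1.59 and 1.63 CPM on day 2, with log2 changes of -5.89 ± 0.25 and -5.00 ± 0.44 (adjusted p = 1.01e-18 and 2.08e-11), but POU5F1 has pseudogenes that can share its reads. LIN28A (0.06 ± 0.06) and LIN28B (-0.06 ± 0.07), which also mark early neural progenitors, were not called. PRDM14, known in pluripotent and germ cells and in some neurons of zebrafish, was the member that rose, with 80 and 2 counts on day 4 and day 2, a ratio of 39.7 (95% counting interval 10.6 to 333).

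Most cell cycle genes fell, each by less than 2-fold. Of 22 genes of DNA replication 20 were lower (median log2 change -0.31), and of 24 genes of mitosis 23 (median -0.37), with none higher in either list, at an unadjusted p under 0.05 as well. Without 1 library the counts lower were 17 to 21 and 22 to 23. The calls of E2F1, FEN1 and TYMS were lost without day 4 replicate 2 (adjusted p = 0.115, 0.195 and 0.0945). HMMR, a spindle protein, had 47.9, 51.9 and 46.3 CPM in the day 4 libraries, against 72.9, 73.4 and 73.9 CPM in the day 2 libraries. MCM3, a subunit of the replicative helicase, had 298, 270.4 and 315 CPM in the day 4 libraries, against 405, 421 and 414 CPM in the day 2 libraries. All day 4 libraries were lower in both (log2 changes -0.59 ± 0.08 and -0.49 ± 0.06, adjusted p = 8.94e-08 and 9.46e-08), and MKI67 fell by 0.29 on the log2 scale (SE 0.07, adjusted p = 0.00045). The changes of the 46 members ran from -0.59 to 0.03, so no member changed 2-fold. Among 17 genes of cell cycle exit and D cyclins 10 rose and 2 fell. CDKN1A, the p21 inhibitor of cyclin-dependent kinases, had 121, 106 and 111 CPM in the day 4 libraries, against 39.9, 40.1 and 35.8 CPM in the day 2 libraries. CDKN1C, the p57 inhibitor of newborn neurons, had 27.8, 26.9 and 28.9 CPM on day 4, against 13.4, 11.99 and 11.9 CPM on day 2. The days did not overlap in either gene (log2 changes 1.54 ± 0.15 and 1.16 ± 0.10, adjusted p = 3.9e-10 and 2.86e-12). CCND2 fell by 0.57 on the log2 scale (SE 0.13, adjusted p = 0.000686), and CCND1 was not called (95% interval -0.27 to 0.25). Without day 2 replicate 2 the count of higher members was 6.

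Targets of p53 other than CDKN1A were higher too. Of 16, 14 rose and none fell, with a median log2 change of 0.64. BBC3, which codes for the apoptosis inducer PUMA, had 20.6, 19.3 and 21.2 CPM in the day 4 libraries, against 9.21, 9.42 and 8.99 CPM in the day 2 libraries, with every day 4 library above those of day 2 (log2 change 1.15 ± 0.08, adjusted p = 7.54e-15). MDM2, the p53 inhibitor, rose by 0.73 ± 0.09 (adjusted p = 1.04e-07), GDF15, a stress-induced cytokine, by 1.97 ± 0.21 (adjusted p = 4.94e-10), and ZMAT3 by 1.10 ± 0.12 (adjusted p = 1.61e-09). Of 16 genes of the unfolded protein and integrated stress responses 9 rose and 2 fell (1 without replicates 1 or 2 of day 2 or replicate 2 of day 4, 4 without replicate 1 of day 4). DDIT3, a factor of that response, rose (1.19 ± 0.11, adjusted p = 1.53e-11), while HSPA5 (-0.13 ± 0.06) and ATF4 (0.06 ± 0.06) were not called.

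Immediate early genes and actin-linked targets of SRF and YAP were higher on day 4, and several of them differed between its libraries. Of 17 immediate early genes 14 rose and none fell (median log2 change 1.31), although MYC was called lower with the 6 libraries alone. EGR1, a factor induced within minutes by MAPK signalling, had 41.6, 40.97 and 36.8 CPM in the day 4 libraries, against 5.44, 4.06 and 3.72 CPM in the day 2 libraries. FOSL1 had 15.8, 12.9 and 9.39 CPM on day 4, against 1.86, 1.77 and 1.48 CPM on day 2. Both were well above day 2 in all day 4 libraries, with log2 changes of 3.17 ± 0.16 (adjusted p = 2.77e-17) and 2.89 ± 0.26 (adjusted p = 3.33e-11). Of the 22 targets of SRF and YAP 12 rose and none fell (median 0.41). ANKRD1, a target of YAP, had 67.2, 51.8 and 31.9 CPM in the day 4 libraries, against 2.68, 2.64 and 2.28 CPM in the day 2 libraries. TAGLN, a smooth muscle actin-binding gene driven by SRF, had 359.5, 263 and 187 CPM in the day 4 libraries, against 48.7, 42.1 and 44.6 CPM in the day 2 libraries. The 3 day 4 libraries differed about 2-fold among themselves, yet each lay above day 2 (log2 changes 4.30 ± 0.50 and 2.58 ± 0.39, adjusted p = 3.36e-08 and 3.73e-06). CNN1 (2.78 ± 0.39) and THBS1 (2.72 ± 0.31) rose likewise, whereas CCN2, a target of YAP as well, had 169, 146 and 113 CPM on day 4, against 142, 143 and 142 CPM on day 2, an overlap, and was not called (95% interval -0.43 to 0.42). The ROCK inhibitor, which acts on the actin cytoskeleton, was present up to day 2, and its part in these changes was not tested. Levels under the inhibitor on day 1 differed between genes. ANKRD1 was then at 5.31 CPM, near its day 2 level, whereas TAGLN was at 160.3 CPM, above day 2 and below day 4. The whole list summed to 14231 to 14453 CPM on day 1, above the 3 day 2 libraries and above the 2 lower of the 3 day 4 libraries (13942 and 13823 CPM). On day 0, after the culture that also held a ROCK inhibitor, it summed to 9275 to 9529 CPM, below the 3 day 2 libraries. ANKRD1 was then at 0.0613 CPM and TAGLN at 7.58 CPM.

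SRF binds CArG boxes and the TEAD partners of YAP bind the letters GGAATG, and the promoters of EGR1 and ANKRD1 hold such sites. They are shown as the 250 bases before the RefSeq start on GRCh38.p14, at chr5:138465229-138465478, plus strand for EGR1 and chr10:90921088-90921337, minus strand for ANKRD1. Capitals mark the CArG boxes of EGR1, which begin 105 and 83 bases before the start, and the GGAATG letters of ANKRD1 on either strand, which begin 220 and 128 bases before it.

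EGR1: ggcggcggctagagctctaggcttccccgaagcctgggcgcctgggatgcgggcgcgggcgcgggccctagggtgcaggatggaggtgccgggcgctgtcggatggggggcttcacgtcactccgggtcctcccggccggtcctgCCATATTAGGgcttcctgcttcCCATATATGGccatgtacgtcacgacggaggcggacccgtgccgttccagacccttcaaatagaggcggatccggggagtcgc

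ANKRD1: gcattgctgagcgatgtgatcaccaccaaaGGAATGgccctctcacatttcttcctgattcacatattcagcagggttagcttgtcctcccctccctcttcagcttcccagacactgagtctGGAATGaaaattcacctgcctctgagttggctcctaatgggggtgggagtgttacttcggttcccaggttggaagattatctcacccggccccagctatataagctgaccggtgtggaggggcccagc

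A CArG box was found in 2 of 15 windows (13.3%) of the immediate early genes called higher, in 3 of 15 of the SRF and YAP targets called higher, and in 1.16% of all windows. GGAATG was found in 5 of 15 windows (33.3%) of those SRF and YAP targets and in 11.9% of all windows. The SRF and YAP list was drawn up as targets of these factors, and windows of members not called were not counted. The shares therefore do not bear on the rise on day 4, and a match of letters does not show binding.

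**Figure D5:**
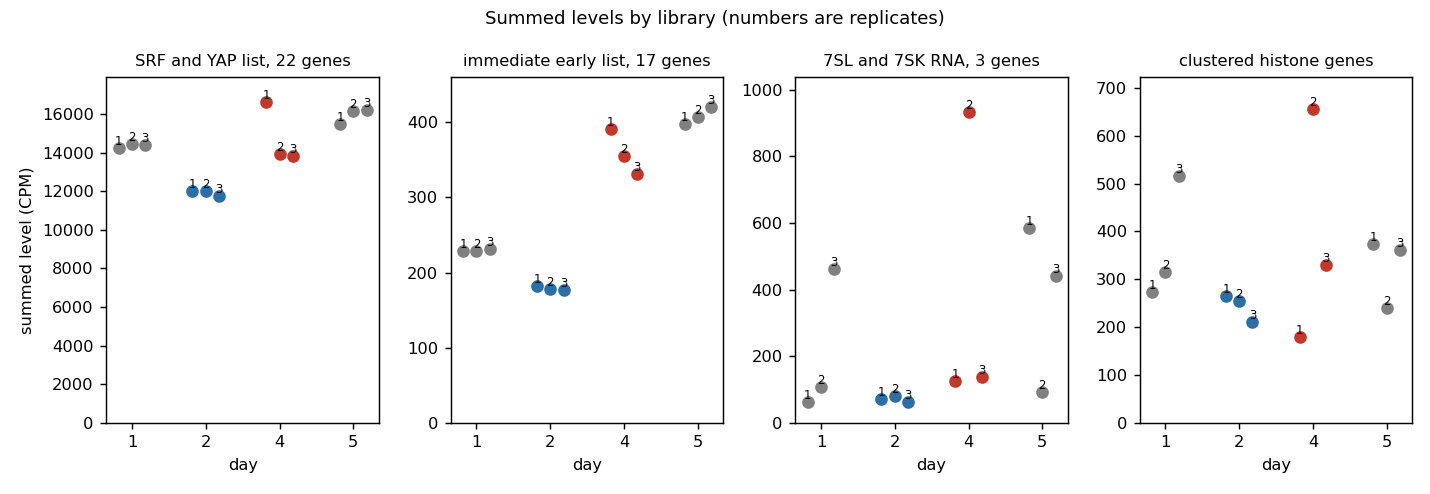
Summed level in CPM of 4 groups of genes in each library of days 1, 2, 4 and 5, numbered by replicate. The immediate early list sums to 331 to 391 CPM on day 4 and 177 to 182 CPM on day 2, and the SRF and YAP list, most of whose sum comes from actin and filamin genes, to 13823 to 16610 and 11756 to 12032 CPM. Among the 6 libraries of these days, day 4 replicate 2 stands apart in the 7SL and 7SK RNAs and in the clustered histone genes, and 1 library of day 1 and 2 of day 5 are also high in 7SL and 7SK.

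Several further groups changed by small amounts. Of 20 genes of cholesterol synthesis and uptake 12 rose and none fell, with a median log2 change of 0.18 and the largest in STARD4 (0.52 ± 0.09, adjusted p = 2.34e-05). Matrix genes were more often lower, with 9 of 26 (34.6%) lower and 4 (15.4%) higher, beside 15.9% and 19.5% of all genes. NID2, a basement membrane protein, had 204, 199 and 221 CPM on day 4, against 477, 474 and 468 CPM on day 2, lower in all day 4 libraries (-1.19 ± 0.12, adjusted p = 9.32e-10), while its relative NID1 rose (0.59 ± 0.05, adjusted p = 2.71e-12). Of 22 junction and adhesion genes 6 (27.3%) were higher and 5 (22.7%) lower, and of 26 glycolysis and hypoxia genes 8 (30.8%) and 7 (26.9%), beside 19.5% and 15.9% of all genes. VEGFA, the vascular growth factor gene induced by hypoxia, fell by 0.67 on the log2 scale (adjusted p = 4.47e-06). Among 20 genes of developmental timing 6 (30%) rose and 6 (30%) fell, beside 19.5% and 15.9% of all genes. ONECUT2 and ONECUT3, factors of early-born neurons, rose by 1.69 ± 0.20 and 2.67 ± 0.32 (adjusted p = 5.14e-08 and 3.28e-08), and the early progenitor genes HMGA2, TRIM71 and NR6A1 fell (-0.35, -0.37 and -0.48).

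Genes outside the lists complete the ends of the range. Among the 15 protein-coding genes with the highest log2 changes at a mean of at least 10 CPM on day 4 were P2RX3, the ATP receptor of sensory neurons, at 23.8, 22.4 and 26.4 CPM on day 4, against 0.663, 0.616 and 0.645 CPM on day 2 (5.23 ± 0.31), and THSD7A, a thrombospondin domain protein, at 12.002, 14.7 and 11.1 CPM on day 4, against 0.232, 0.181 and 0.114 CPM on day 2 (6.10 ± 0.36). SPP1 (osteopontin) and ETS1 also stood there, with 44.99, 37.2 and 21.9 CPM on day 4, against 1.69, 0.978 and 1.18 CPM on day 2 for SPP1 and 35.7, 31.1 and 15.9 CPM on day 4, against 1.39, 1.74 and 1.29 CPM on day 2 for ETS1. Their day 4 libraries varied about 2-fold, and all lay above day 2. At the other end stood KEL, the Kell blood group gene, at 0.476, 0.271 and 0.417 CPM on day 4, against 14.3, 13.1 and 13.5 CPM on day 2 (-5.09 ± 0.22), HMOX1, the enzyme of haem breakdown, at 2.60, 1.76 and 2.34 CPM on day 4, against 14.8, 15.6 and 15.1 CPM on day 2 (-2.74 ± 0.19), and PTN (pleiotrophin) at 22.996 ± 2.26 CPM on day 4 and 124 ± 0.946 on day 2 (-2.43 ± 0.23). None of these overlapped between the days.

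By difference in CPM, the largest gain was that of TUBA1A and the largest fall that of EEF1A1, a translation factor whose call was lost without day 4 replicate 2 (adjusted p = 0.0635) and with the 6 libraries alone (adjusted p = 0.0549). TUBA1A, the main tubulin of newborn neurons, had 2259, 2082 and 2328 CPM in the day 4 libraries, against 1040.3, 1079.8 and 1054 CPM in the day 2 libraries, a log2 change of 1.07 ± 0.07 (adjusted p = 6.04e-16). RELN, the reelin gene, had 1706, 1869.8 and 1942 CPM in the day 4 libraries, against 1351, 1383 and 1327 CPM in the day 2 libraries, and its mean on day 8 was 247 CPM. Both were higher in every day 4 library. TUBB and TUBA1B, tubulins of dividing cells, fell by 0.28 and 0.24 on the log2 scale, and the ribosomal protein genes RPLP0 and RPS2 fell by 0.30 and 0.34 (adjusted p = 4.21e-06 and 5.83e-06). PODXL, a surface protein of epithelia, had 539, 493 and 505 CPM on day 4, against 867, 871 and 866 CPM on day 2, lower in all day 4 libraries (-0.76 ± 0.10, adjusted p = 4.03e-07).

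Of non-coding genes averaging at least 10 CPM, RN7SL1 and RN7SL2, the 7SL RNAs of the signal recognition particle, were among the 3 with the highest log2 changes, but the rise rested on 1 library. RN7SL2 had 56.9, 481 and 46.5 CPM in the day 4 libraries, against 24.6, 28.6 and 19.96 CPM in the day 2 libraries. Day 4 replicate 2 stood far above the other 5 libraries, and without it the adjusted p was 0.444 for RN7SL2 and 0.413 for RN7SL1. Both calls were also lost with the 6 libraries alone (adjusted p = 0.136 and 0.133), with limma and without replicate 1 or 3 of day 2. H19, an imprinted non-coding RNA, had 62.9, 57.7 and 56.2 CPM on day 4, against 151, 152 and 145 CPM on day 2, lower in all day 4 libraries (-1.34 ± 0.19, adjusted p = 1.15e-06).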

How the data were processed

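Poly(A) RNA of H9-derived cells was sequenced on 15 days, with 3 libraries a day. Per the labels' protocols, libraries were made with a KAPA mRNA kit. The authors deposited expected counts per gene and TPM, a unit scaled by transcript length and library total, and the submitters' processing notes name bcl2fastq 2.20.0, RSEM and GRCh38. The sources used here do not give the aligner, annotation or strand setting. Gene identifiers were named from GENCODE release 29, in which 338 of the 58233 deposited genes were not found.

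The deposited expected counts were rounded to whole numbers. Genes with too few counts over all days were removed (edgeR filterByExpr), libraries were scaled by TMM, and day was fitted as a factor over all 45 libraries, which share 1 estimate of the spread (30 residual degrees of freedom, median biological coefficient of variation 8.62%). Day 4 was tested against day 2 with edgeR 4.0.16 (quasi-likelihood, R 4.3.3) with Benjamini-Hochberg adjustment over 19436 genes at 0.05. SE is the log2 change divided by the square root of its F statistic. A ± after a log2 change is this SE and one after a mean is the SD. Exact permutation over 3 against 3 libraries cannot go below p = 0.1, so single genes rest on this fit. On simulated counts for this contrast (19244 genes) the fit recovered 93% of 100 genes changed 2-fold and 100% of 100 genes changed 4-fold. The changed genes were all above 1 CPM on day 2, and both days were given the same spread. These shares thus do not cover genes at lower levels on day 2, nor the wider spread between the day 4 libraries. A gene with no count on 1 day is compared with a floor of 3 counts over its libraries, and one with 1 to 3 counts gets a ratio with a 95% interval. Floors and intervals cover counting error only.

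Alternatives were DESeq2 1.42.0, its size factors in edgeR, no filter on low counts, the replicate number as a block, the 6 libraries alone, a 2-fold threshold, leaving out each library, and limma 3.58.1 on log2(TPM + 1) from the deposited TPM, for genes at 1 TPM or more in 3 libraries. Promoter windows are from RefSeq on GRCh38.p14. The members and gene lists were chosen with earlier results of these data known. By rule, genes could be named from the 15 protein-coding genes at each end of the log2 changes (called, 10 CPM or more, libraries of the days apart), the 10 at each end of the CPM differences, 3 non-coding genes at each end, up to 4 called members of each list, and the members of the proneural, Notch, ventral and motor neuron lists that averaged at least 1 CPM. Other genes named were chosen after their values were seen. Some genes that the rule would name are not reported here.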

Additional observations from a re-analysis of the deposited data

How the results depend on the processing

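Against 3794 genes higher and 3098 lower on day 4, the counts were 3652 and 3080 with DESeq2, 3732 and 3192 with its size factors, 3261 and 2597 with no filter on low counts, 3569 and 3226 with the 6 libraries alone, 3157 and 2260 with limma on log2(TPM + 1), and 3335 to 3510 and 2565 to 2779 without 1 library. A change of at least 2-fold, tested as such, left 502 and 184, a stricter question by construction. Between 72.3% (limma) and 99.1% of the 6892 calls were kept under the alternatives that test for any change, and 0 were called in the opposite direction. A gene that an alternative did not test counts here as not kept. The limma fit tested 18075 genes and the fit of the 6 libraries alone 16462. Same-numbered libraries of the days did not deviate together (correlations of -0.02, -0.09 and -0.08 over 13297 genes), and the fit with a replicate block gave 3778 and 3115, with no list count of 5 or more moved by over 1.5 times.

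Some list counts moved by over 1.5 times. The fit of the 6 libraries alone tested 16462 genes, and a member not tested there counts as not called. For the other fits the cause was not tested. Notch ligands and regulators lower, 5, were 3 with no filter or limma and 2 to 5 without 1 library. Motor neuron genes higher, 11, were 6 with the 6 libraries alone and 7 with limma. Of those missing with the 6 libraries alone, SLIT2 was tested there and the rest were not. Retinoic acid genes higher, 5, were 3 with no filter, the 6 libraries alone or limma and 3 to 4 without 1 library. Hedgehog genes lower, 7, were 4 to 6 without 1 library, and cell cycle exit genes higher, 10, were 6 to 10. Tail bud genes lower, 5, and junction genes lower, 5, were each 3 with limma. ALDH1A2 and TGM2 were not tested with the 6 libraries alone and lost their calls in most of the other fits named here. Both have few counts, and the part of depth in this was not tested.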
